A study of Homo sapiens with 4 samples.

Results

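Expression was measured in cells labelled as MCF-10A, a line of non-tumorigenic human mammary epithelium, after treatment with stapled peptides. The genes were the aldo-keto reductases AKR1C1, AKR1C2, AKR1C3 and AKR1B10 and 6 further targets of the transcription factor NRF2 (NQO1, TXNRD1, GCLM, GCLC, HMOX1 and SRXN1). The 10 genes were chosen by their signals and their differences between peptides on these same arrays, known from earlier work on the data, so those values are given as a description. Their probes were taken by RefSeq transcript accession. This gave 11 probes for 9 genes, of 20501 genes with a symbol on the array. AKR1C2 had no probe by this rule and was not analysed here beyond its promoter. AKR1C1 and AKR1B10 had 2 probes each, HMOX1 had 1 probe printed as 10 spots, and the other 10 probes were spotted once. AKR1C transcripts are close in sequence, so an AKR1C probe may also bind RNA of its relatives.

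The study asked how cells respond to stapled analogues of a peptide that blocks the binding of BIG3 to PHB2. The cells received 10 µM of the peptide named in the labels as stapled-peptide or of that named non-specific stapled-peptide, for 24 h or 48 h, and RNA of each of these 4 conditions went onto 1 single-colour Agilent array. The labels do not say which analogue each name stands for, and they mark the treatment of both non-specific stapled-peptide samples as control. The labels give the same line for all 4 samples, which markers of 1 array go against, as described below. The medium given for them was the same and held hydrocortisone, EGF, insulin and cholera toxin. No untreated cells were among the samples. With 1 array per condition no condition was tested against another, no error between cultures could be given, and every difference below has no replicate check.

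NRF2, the product of NFE2L2, is held low by KEAP1, an adaptor that marks it for degradation. Oxidants and electrophiles modify KEAP1, and NRF2 then gathers in the nucleus, pairs with a small MAF protein and binds antioxidant response elements, which BACH1 can occupy as a repressor. Its targets supply glutathione, keep thioredoxin reduced, break down haem and reduce reactive carbonyls and quinones. The aldo-keto reductases are NADPH-dependent enzymes that reduce aldehydes and ketones, and those of the AKR1C family also act on steroids and prostaglandins.

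The array of non-specific stapled-peptide at 48 h stood apart from the other 3. Over the 37761 probes well above background on any of the arrays, its log2 signals correlated with theirs at 0.813 to 0.819. The other 3 correlated with each other at 0.978 to 0.980. The label was checked against markers of the line. Of 12 basal mammary markers, 11 were over 4-fold lower on it than with stapled-peptide at 48 h, against 8.7% of all genes. The log2 summed signal of the 12 markers was 17.37 to 17.43 on the other 3 arrays and 9.60 on this array, although all 12 remained well above background. The sum of 6 luminal markers was 14.90 to 14.98 against 12.66, that of 5 fibroblast markers 14.85 to 14.97 against 7.51, and that of 5 hepatocyte markers 9.42 to 9.54 against 7.22. DCN (-9.15 at 48 h) and SERPINA1 (-4.35) carry the latter sums, while COL1A1, LUM, APOA1 and ALB differed by 0.13, a bound of 0.19, 0.84 and a bound of 0.44. PDGFRB was not well above background on this array but was on the other 3. COL1A2, APOB and TTR were not well above background on any of the 4 arrays. Of 8 genes listed for an embryonic kidney line, 5 were over 4-fold higher on it, against 8.1% of all genes. The 8 genes had a sum of 14.77 on it against 9.62 to 9.72. HOXA9, 1 of these 5, differed by 2.88 at its brighter probe. Its other probe, well above background on all 4 arrays, differed by 0.03. The brighter probes of PAX2 and L1CAM and that of PHOX2A were not well above background on the array of non-specific stapled-peptide at 48 h. The other PAX2 probe read 7.78 on it (bound 3.89) and the other L1CAM probe 3.99, both dim on the remaining arrays, where LIN28B, NEFL, NEFM and PHOX2A were dim as well. These values go against the labelled line for this array, and their part in the differences given below was not tested. In bulk RNA, fewer cells of a type and less RNA per cell cannot be told apart. Each array had 62.5% to 65.7% of its spots well above background and no saturated spot, and all 4 lay on the same slide in the same scan.

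The promoters of 8 of the 10 genes were found among RefSeq promoters (GRCh38.p14), and these genes had 10 transcript starts between them. A search of both strands for TGACNNNGC, the core of the antioxidant response element, over the 250 bases before and 50 bases after each start found it in 3 of the 10 windows, and in 13.3% of 35116 RefSeq promoters. The 3 windows belonged to GCLM, which encodes the modifier subunit of glutamate-cysteine ligase, and to TXNRD1, which encodes thioredoxin reductase. They are shown because these genes went opposite ways on the array that stood apart. Each sequence is the 250 bases before the start, 5′ to 3′ on the gene's strand, with matches to the core in capitals. The match at the end of the TXNRD1 promoter at chr12:104215529-104215778 runs past the last base printed. The AP-1 motif TGANTCA, which shares bases with some longer forms of the element, was in none of the 10 windows and in 7.71% of all promoters. A match is a stretch of letters and not a measured binding site.
GCLM promoter, chr1:93909431-93909680, minus strand: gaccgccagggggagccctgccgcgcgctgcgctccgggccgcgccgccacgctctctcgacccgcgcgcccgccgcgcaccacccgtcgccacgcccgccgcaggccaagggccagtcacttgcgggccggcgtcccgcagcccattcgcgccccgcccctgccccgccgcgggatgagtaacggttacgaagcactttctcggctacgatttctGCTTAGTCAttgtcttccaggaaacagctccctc
TXNRD1 promoter, chr12:104215529-104215778, plus strand: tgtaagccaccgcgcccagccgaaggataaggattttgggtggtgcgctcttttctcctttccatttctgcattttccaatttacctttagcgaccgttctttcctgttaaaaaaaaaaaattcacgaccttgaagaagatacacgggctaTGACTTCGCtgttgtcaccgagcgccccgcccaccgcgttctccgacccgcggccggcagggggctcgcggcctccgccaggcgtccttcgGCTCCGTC
TXNRD1 promoter, chr12:104286782-104287031, plus strand: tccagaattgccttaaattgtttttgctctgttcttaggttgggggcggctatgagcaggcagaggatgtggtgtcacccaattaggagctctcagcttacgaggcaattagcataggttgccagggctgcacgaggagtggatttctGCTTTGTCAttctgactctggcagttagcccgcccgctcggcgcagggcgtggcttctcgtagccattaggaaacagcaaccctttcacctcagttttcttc
The AKR1C genes lie close together on chromosome 10, and the promoters of AKR1C1 and AKR1C2 are shown to give an idea of how near these copies are. Over their aligned 250-base stretches the pair had 96.5% identity, against 72.4% and 69.9% for AKR1C1 with both promoters of AKR1C3. Neither held the core within its window, which says nothing of elements farther away.
AKR1C1 promoter, chr10:4963165-4963414, plus strand: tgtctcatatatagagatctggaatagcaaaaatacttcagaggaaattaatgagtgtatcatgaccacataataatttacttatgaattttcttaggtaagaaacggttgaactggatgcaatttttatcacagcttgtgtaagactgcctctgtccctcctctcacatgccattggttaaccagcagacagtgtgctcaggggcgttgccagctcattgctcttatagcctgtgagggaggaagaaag
AKR1C2 promoter, chr10:5003858-5004107, minus strand: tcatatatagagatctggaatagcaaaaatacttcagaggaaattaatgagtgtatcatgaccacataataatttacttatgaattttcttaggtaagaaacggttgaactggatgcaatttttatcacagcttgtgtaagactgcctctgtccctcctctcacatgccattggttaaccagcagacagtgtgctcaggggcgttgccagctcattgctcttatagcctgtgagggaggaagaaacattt

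On the array of non-specific stapled-peptide at 48 h, AKR1C1, AKR1C3, NQO1 and TXNRD1 were over 4-fold lower than with stapled-peptide at the same time, and GCLM was over 4-fold higher. GCLC, SRXN1 and HMOX1 were lower by between 2-fold and 4-fold, and AKR1B10 lay within 2-fold. The other 3 arrays gave nearly the same levels for each gene but HMOX1, which was low with non-specific stapled-peptide at both times. Values are quantile-normalized log2 signals, and each difference is non-specific stapled-peptide minus stapled-peptide or 48 h minus 24 h. Where a probe was not well above background on an array, that side was raised to the array's lowest well-above-background signal, which makes the difference a bound. A bound, or a fold given as at least a value, holds under this processing only. Normexp background correction gave smaller differences for AKR1C1 and NQO1. These lowest signals were 3.94 (stapled-peptide) and 3.78 (non-specific stapled-peptide) on the 24 h arrays and 3.89 and 3.57 on the 48 h arrays. A signal of 1 probe is not set against that of another, since probes bind with different strength.

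**Figure D1:**
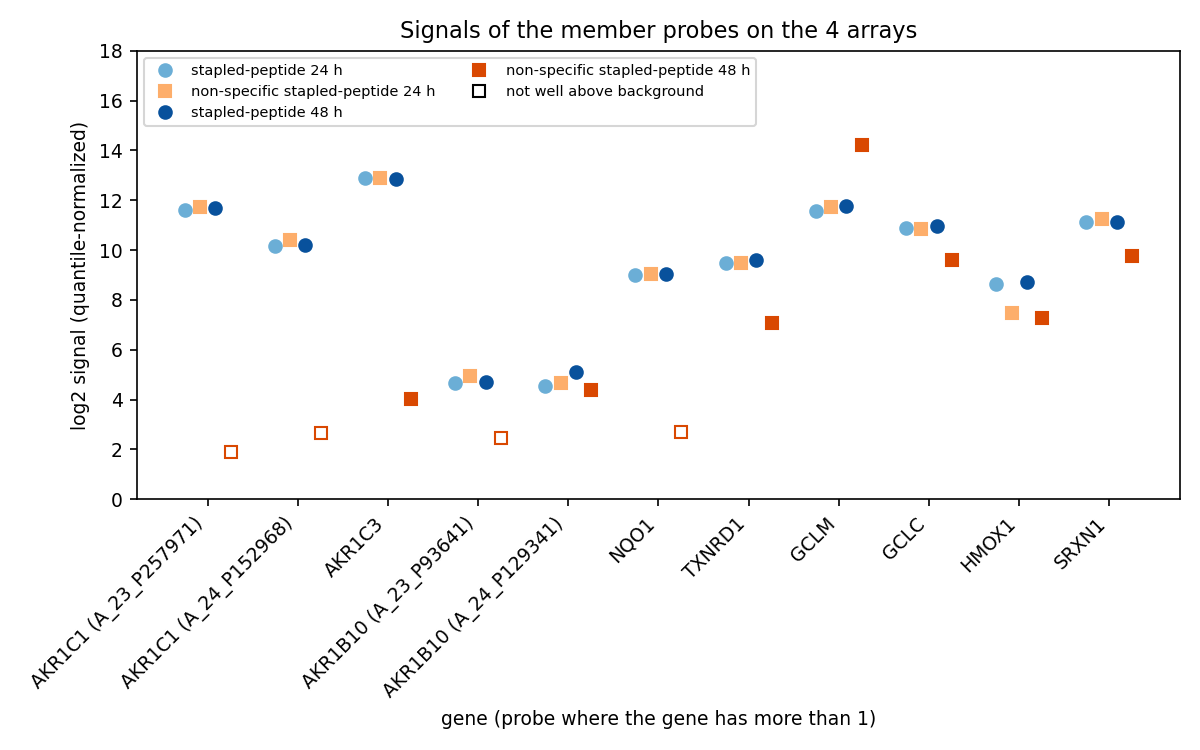
Quantile-normalized log2 signal (vertical axis) of the 11 probes of the 9 genes (horizontal axis, with the probe name where a gene has 2 probes) on the 4 arrays. Each point is 1 array, colours give peptide and time, and open squares are not well above background. On the array of non-specific stapled-peptide at 48 h (dark squares), 4 probes were not well above background and GCLM was at its highest, 14.22, whereas points of the other 3 arrays lie close together for every probe but that of HMOX1.

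AKR1C1, a hydroxysteroid dehydrogenase that inactivates progesterone, had log2 signals at probe A_23_P257971 of 11.61 (stapled-peptide) and 11.72 (non-specific stapled-peptide) at 24 h. At 48 h it gave 11.68 with stapled-peptide, while under the non-specific one the signal was 1.89 and not well above background. Its second probe, A_24_P152968, gave 10.16, 10.41 and 10.20 on the same 3 arrays in the same order and 2.65 on the array of non-specific stapled-peptide at 48 h, also not well above background. Both probes thus showed a single low array. AKR1C1 was at least 276-fold lower with non-specific stapled-peptide at 48 h (bound on the log2 difference -8.11) by the brighter probe and at least 99.1-fold lower (-6.63) by the other. These bounds depend on the processing, and with normexp background correction the difference of the gene was -5.42. At 24 h the peptides differed by 0.11 and 0.25 at these probes.

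AKR1C3, which makes testosterone and oestradiol from weaker precursors and is a prostaglandin F synthase, had log2 signals of 12.88 (stapled-peptide) and 12.89 (non-specific stapled-peptide) at 24 h and of 12.85 and 4.03, in the same order, at 48 h. Its 3 high arrays lay within 0.04 of each other, and the low array was still well above background. The difference at 48 h was -8.83, which is 454-fold. At 24 h it was 0.01.

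AKR1B10, a reductase of retinaldehyde and other carbonyls, was near the lowest well-above-background signals throughout. The probe that stands for the gene, A_24_P129341, gave 4.56 and 4.65 at 24 h and 5.10 and 4.40 at 48 h, with stapled-peptide first in each pair. Its other probe, A_23_P93641, gave 4.67 and 4.93 at 24 h and 4.71 and 2.48 at 48 h, the last of these not well above background. No array stood apart at the first of these probes, and its difference at 48 h was -0.70. The other probe gave a bound of -1.15. Probes of such low signal had a median SD of 0.24 to 0.26 between the spots of an array, against 0.061 to 0.068 at log2 signals of at least 7, as measured on the 902 probes printed 10 times.

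NQO1, an NADPH quinone reductase often used as a readout of NRF2 activity, had log2 signals of 9.01 and 9.04 at 24 h and of 9.03 and 2.72 at 48 h, with stapled-peptide first in each pair. The last was not well above background. The gene was at least 44.1-fold lower there (bound -5.46) under this processing, while with normexp background correction the difference was -2.90. The peptides differed by 0.03 at 24 h.

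TXNRD1, which returns thioredoxin to its reduced form, gave 9.47 and 9.50 at 24 h and 9.60 and 7.06 at 48 h, with stapled-peptide first in each pair. The signal stayed well above background on each array and the low one lay apart from the rest. The difference at 48 h was -2.54, or 5.80-fold. SRXN1, sulfiredoxin, which repairs overoxidized peroxiredoxins, had signals of 11.15, 11.23 and 11.15 on the arrays other than that of non-specific stapled-peptide at 48 h, and of 9.75 on that one. It was 2.64-fold lower there (-1.40), which does not reach 4-fold.

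GCLM and GCLC, the modifier and catalytic subunits of the enzyme that sets the rate of glutathione synthesis, went opposite ways. GCLM had log2 signals of 11.56 and 11.74 at 24 h, of 11.76 with stapled-peptide at 48 h and of 14.22 with non-specific stapled-peptide at 48 h. It was 5.51-fold higher on that array (2.46), the only gene of the 9 that was higher. GCLC had signals of 10.88 and 10.83 at 24 h, of 10.98 with stapled-peptide at 48 h and of 9.60 with non-specific stapled-peptide at 48 h. Its difference at 48 h was -1.38, or 2.61-fold lower. At 24 h the differences were 0.17 for GCLM and -0.05 for GCLC.

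**Figure D2:**
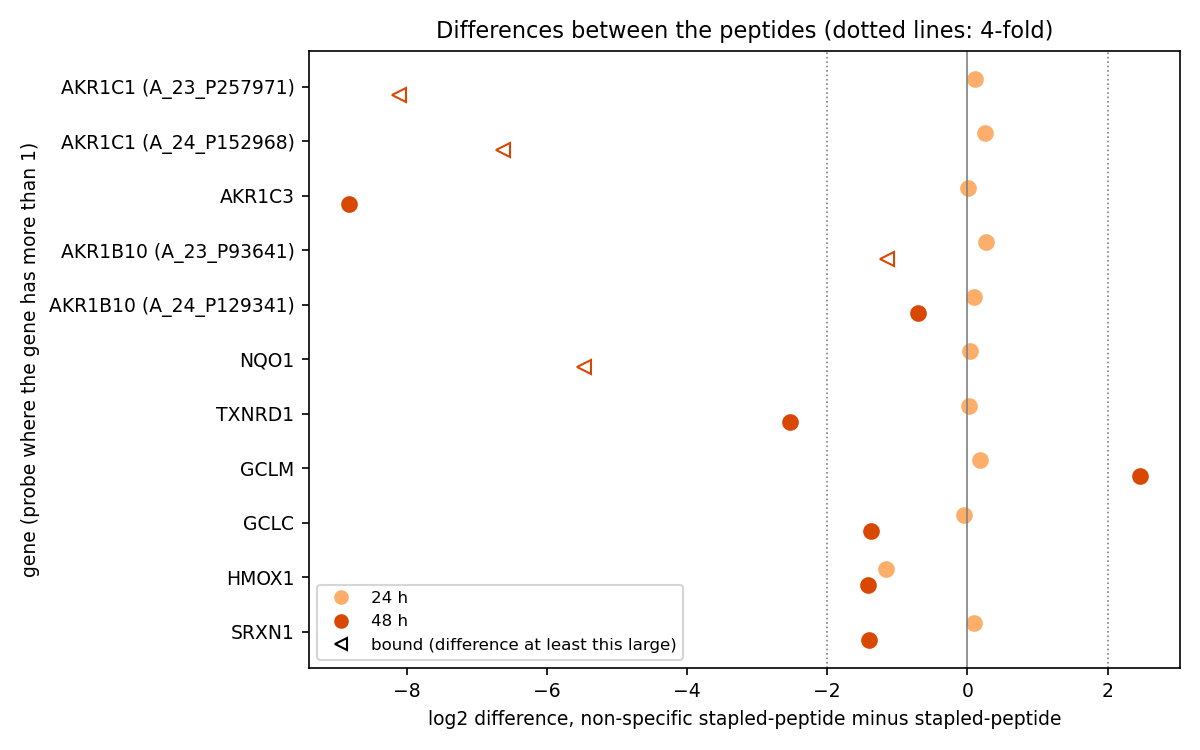
Log2 difference between the peptides, non-specific stapled-peptide minus stapled-peptide (horizontal axis), for each probe of the 9 genes (vertical axis) at 24 h (light) and 48 h (dark), with dotted lines at 4-fold. Open triangles are bounds, with the difference at least that large under this processing only. Points at 24 h sit near 0 except for HMOX1 at -1.17, and those at 48 h run from -8.83 for AKR1C3 to 2.46 for GCLM.

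In all, 5 of the 9 genes were past 4-fold at 48 h, against 16.8% of 17112 genes. The share over all genes was 8.1% higher and 8.7% lower, and among the 9 genes 1 was higher and 4 were lower. Past 2-fold there were 8 of the 9 genes, against 41.0% of all genes, and past 10-fold 3 of the 9, against 6.56%. Since the genes were chosen with these differences known, nothing is read from the counts. The median difference of the 9 genes at 48 h was -1.42, that of all genes 0.03 with an SD over genes of 1.76, and 48.9% of all genes were below 0. Without normalization between arrays the median of all genes rose by 0.23 and 58.4% of the genes past 4-fold were higher, against 48.2% here, but the 9 genes remained 1 higher and 8 lower. All of these counts rest on a single array. With the array of non-specific stapled-peptide at 24 h set in place of that at 48 h, a comparison chosen after seeing the data in which time and peptide cannot be told apart, 0 of the 9 genes were past 4-fold and their median difference was -0.02.

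At 24 h none of the 9 genes was past 4-fold, against 0.413% of 16228 genes, and HMOX1 alone was past 2-fold, against 1.87%. The median difference of the 9 genes was 0.03 and that of all genes 0.01, with an SD over genes of 0.34. AKR1B10, AKR1C1, AKR1C3, GCLC, GCLM, NQO1, SRXN1 and TXNRD1 all lay between -0.05 and 0.17 at the probe that stands for each.

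HMOX1 encodes haem oxygenase 1, the inducible enzyme that opens haem to biliverdin, iron and carbon monoxide. It gave 8.66 (stapled-peptide) against 7.49 (non-specific stapled-peptide) at 24 h, and 8.71 against 7.29 at 48 h. The level was lower with non-specific stapled-peptide at each time, and it differed little between times with the same peptide. Its difference was -1.17 at 24 h, or 2.25-fold, which ranked 136 from the lowest of 16228 genes with bounds at their value, and -1.42 at 48 h, or 2.68-fold. These comparisons share no array, but all arrays were normalized together and HMOX1 was chosen with both differences known. The comparison at 48 h uses the array that stood apart, and 41.0% of all genes were past 2-fold in it. It is therefore not read as a repeat of the difference at 24 h. The 10 spots of its probe show the reading error within an array. At 24 h the unnormalized log2 signal was 8.69 ± 0.077 (SD, n = 10 spots; 8.55 to 8.81) with stapled-peptide, against 7.50 ± 0.097 (7.35 to 7.70). At 48 h it was 8.54 ± 0.068 (8.45 to 8.66) against 7.45 ± 0.064 (7.32 to 7.57). Spots of the peptides did not overlap at either time. How many other probes printed 10 times had no such overlap was not counted, so nothing particular to HMOX1 is read from it. Spots of an array share its RNA, and their spread leaves out that between cultures. With the normexp background correction the difference at 24 h was -0.95, under 2-fold.

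Genes lower at both times were also counted over the whole array. Of 15705 genes with a difference at both times, 122 were past 2-fold lower at 24 h, and 25 of these (20.5%) were also past 2-fold lower at 48 h, where 21.1% of all 15705 genes were. The 25 genes are 0.753% of the 3321 past 2-fold lower at 48 h. With probes well above background on all 4 arrays it was 13 of 63 (20.6%), against 19.0%. HMOX1 was among these lower genes, whose shares differed by under 2 percentage points from those over all genes. In the other direction, 97 genes were past 2-fold higher at 24 h. Of these, 32 (33.0%) were also past 2-fold higher at 48 h, where 18.5% of all genes were. With probes well above background on all 4 arrays it was 12 of 35 (34.3%), against 18.4%. The cause of this was not tested.

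In the comparison of times with non-specific stapled-peptide, which uses the same 48 h array as the comparison of peptides, 5 of the 9 genes were past 4-fold, against 16.6% of 17297 genes. AKR1C1 was at least 286-fold lower at 48 h (bound -8.16), AKR1C3 465-fold lower (-8.86), NQO1 at least 44.5-fold lower (bound -5.48) and TXNRD1 5.40-fold lower (-2.43). GCLM was 5.58-fold higher (2.48). SRXN1 and GCLC differed by -1.49 and -1.24. HMOX1 differed by -0.20. AKR1B10 differed by -0.25 at the probe that stands for it, with a bound of -1.37 at the other and -0.81 for the mean of both. With normexp TXNRD1 differed by -1.99, under 4-fold, and 4 genes passed. AKR1C1 and NQO1 then differed by -5.46 and -2.90, less than the bounds above.

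With stapled-peptide none of the 9 genes was past 4-fold between 24 h and 48 h, against 0.521% of 16138 genes, and none was past 2-fold, against 2.06%. Their differences ran from -0.02 for AKR1C3 to 0.54 for AKR1B10, and the median was 0.06. The direction of such small values depends on the scaling, since 8 of the 9 genes were higher at 48 h here but 1 of 9 without normalization, where the median of all genes fell by 0.23.

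Genes of the wider pathway were taken from 7 lists, also chosen with earlier results known, of which 6 are described here, with the differences past 4-fold named. None of the lists had a gene past 4-fold at 24 h, and the counts at 48 h rest on the array that stood apart. They stand beside 8.1% of all genes past 4-fold higher and 8.7% past 4-fold lower at 48 h, and nothing particular to a list is read from them. Among NRF2 and its regulators, 0 of 10 genes were past 4-fold higher at 48 h and 2 were lower, with a median of -0.89. NFE2L2 itself was dim, with 4.77 and 4.48 at 24 h and 48 h under stapled-peptide, and 3.47 and 3.52 under the other peptide, the latter not well above background. Its bounds, from 1 probe spotted once, were -0.99 at 24 h and -0.92 at 48 h. The probe was read only with stapled-peptide and close to the limit, so loss of the RNA under the other peptide is not read from it. KEAP1 gave 10.27 and 10.10 at 24 h and 10.21 and 9.34 at 48 h, a difference of -0.87 at 48 h. BACH1 differed by -0.66 at 48 h at the probe that stands for it, while its dimmer probe gave a bound of 1.03 the other way. MAFF, a small MAF partner, gave 8.38, 8.32 and 8.30 on the other 3 arrays and 5.29 on that of non-specific stapled-peptide at 48 h, a difference of -3.02 (-1.91 with normexp, under 4-fold). SQSTM1, the p62 adaptor that binds KEAP1, differed by -2.38.

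The glutathione list held the widest spread, with a median of -0.40. At 48 h 3 of its 10 genes were past 4-fold higher and 2 lower, against 8.1% and 8.7% of all genes. SLC7A11, the cystine importer that feeds glutathione synthesis, had a log2 signal of 8.14 with stapled-peptide at 48 h and at most 8.29 on the 24 h arrays, against 12.03 on that of non-specific stapled-peptide at 48 h. It was 14.8-fold higher there (3.89). CHAC1, which degrades glutathione, gave 5.92 with stapled-peptide at 48 h and 12.25 on the array of the non-specific one, or 80.5-fold (6.33) higher. The other CHAC1 probe read 8.51 on that array and was dim on the rest, at least 24.7-fold higher (bound 4.62). GSTM3, a glutathione transferase, was not well above background on 3 arrays and read 11.98 on the fourth, at least 274-fold higher (bound 8.10). MGST1, a microsomal glutathione transferase, went from 14.77 to 11.08 (-3.69), and GLRX, glutaredoxin, from 12.23 to 10.19 (-2.04, and -1.85 without normalization, under 4-fold). GCLM thus shared its direction with SLC7A11, CHAC1 and GSTM3 and not with MGST1 and GLRX.

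Of 9 genes for thioredoxins and peroxiredoxins, 1 was past 4-fold higher at 48 h and 1 lower, against 8.1% and 8.7% of all genes. The list had a median of 0.33. SESN2, a stress-induced sestrin, differed by 3.29 and TXNIP, the thioredoxin inhibitor, by -2.02 (-1.85 without normalization). Thioredoxin itself, TXN, gave 14.45, 14.45 and 14.44 on the other 3 arrays and 14.97 on the array that stood apart. Its difference was 0.53 where that of its reductase TXNRD1 was -2.54. Of 8 genes of haem and iron handling, with a median of -0.77, 1 was lower past 4-fold, against 8.7% of all genes. This gene was FTH1, the ferritin heavy chain, with -2.22, and its light chain FTL differed by -1.57. Ferritin has many processed copies in the genome, and its 4 FTH1 probes ran from -2.30 to -1.31, with a mean under 4-fold (-1.87).

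For conjugation, reduction and export 0 of 11 genes were past 4-fold higher and 3 lower at 48 h, against 8.1% and 8.7% of all genes. The list had a median of -1.18. ABCC3, an exporter of organic anions and conjugates, gave 13.22, 13.24 and 13.18 on the other 3 arrays and 4.68 on that of non-specific stapled-peptide at 48 h, or 360-fold lower (-8.49). Its other probe was at least 159-fold lower (bound -7.31). OSGIN1 differed by -2.73 (-1.30 with normexp) and EPHX1, microsomal epoxide hydrolase, by -2.40. Of the other aldo-keto reductases, 8 of 11 genes with a probe had a difference at 48 h, with a median of 0.05. Past 4-fold, 1 of them was lower, against 8.7% of all genes, and none was higher, against 8.1%. AKR1C4, the liver form of the AKR1C group, gave 7.28, 7.28 and 7.40 on the other 3 arrays and a bound of -3.83 at 48 h (-1.91 with normexp). Its second probe was not well above background on any array, and the first may bind RNA of the other AKR1C genes. AKR1A1 and AKR1B1, the widely expressed aldehyde and aldose reductases, had differences of 0.35 and 0.52, both within 2-fold. AKR7A2 and KCNAB3 each differed by 0.14, AKR7A3 by -0.04 and AKR1B15 by -0.95. KCNAB2 gave a bound of -1.64, and of -2.19 at its other probe.

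**Figure D3:**
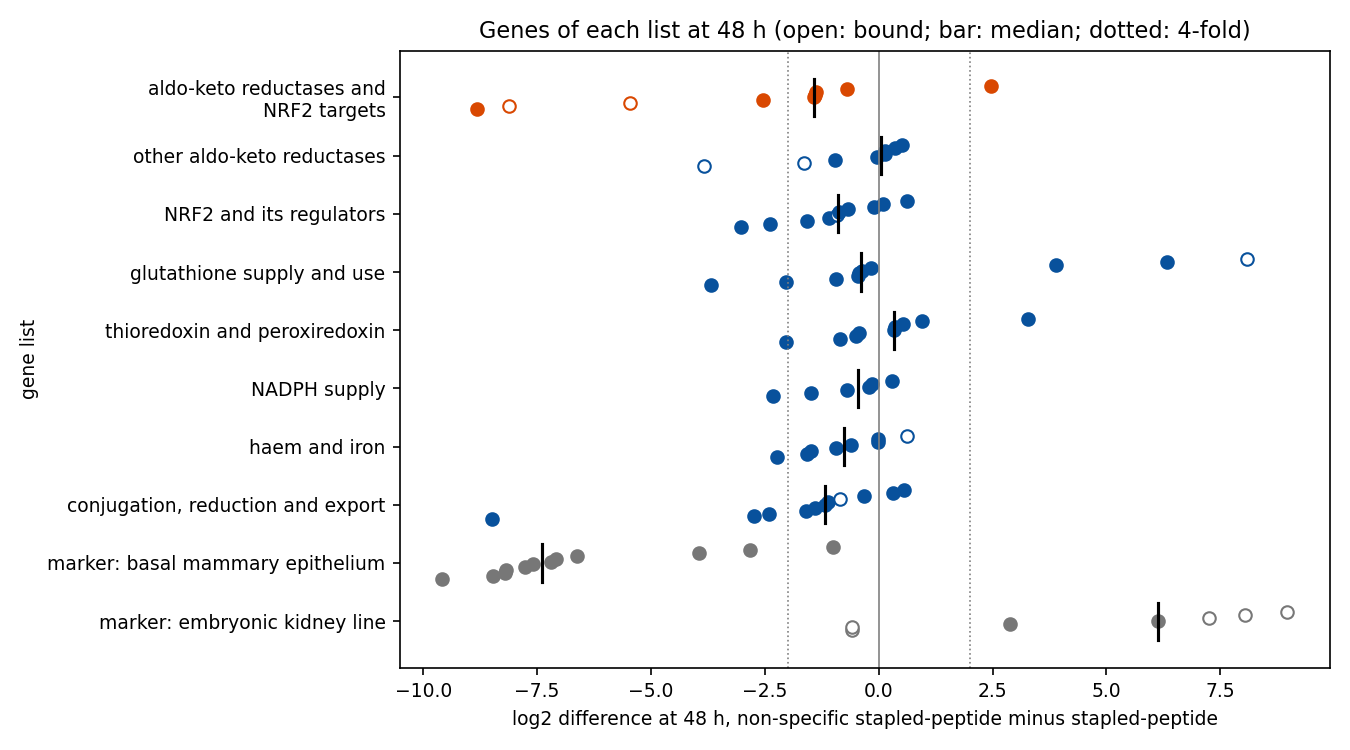
Log2 difference at 48 h, non-specific stapled-peptide minus stapled-peptide (horizontal axis), of each gene with a difference in the 9 genes, 7 pathway lists and 2 marker lists (vertical axis). Each point is 1 gene, open points are bounds, vertical bars are medians and dotted lines mark 4-fold. The glutathione list spreads from -3.69 to 8.10, 11 of 12 basal mammary markers lie left of the lower line, and the 9 genes have a median of -1.42.

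Genes whose profile over the 4 arrays came nearest to that of AKR1C1 were OCIAD2, KRT6A, ARHGDIB, HSPA1A and CSF3, by the root mean square distance between profiles centred on their means, of 15289 genes compared. Like AKR1C1, all 5 were not well above background with non-specific stapled-peptide at 48 h, so neither their distances nor their order are measured, and only the high levels on the other 3 arrays are. Nearest to HMOX1 were MGC12916, SLC24A4, SRC, SHANK2 and DSTNP2, at distances of 0.082, 0.12, 0.12, 0.14 and 0.15, and of these only MGC12916 and SRC were well above background on that array. A likeness over 4 arrays, of which 1 stands apart, is a description of few values. SRC, a tyrosine kinase, had 7.29 and 7.45 at 24 h and 48 h with stapled-peptide, and 6.29 and 5.77 with the other peptide.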

How the data were processed

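RNA of cells given as MCF-10A was labelled with Cy3 and hybridized to 4 Agilent arrays. Per the labels and methods, the authors extracted spot signals with Feature Extraction 9.5, whereas the file headers name 10.7.1.1. The deposited values used here are linear spot intensities with background subtracted and no normalization between arrays. The authors' methods state quantile normalization over all chips.

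Control spots and spots marked as outliers were left out, the rest were averaged per probe on the log2 scale, and 50590 of 50599 probes were quantile-normalized, with a floor at a signal of 1. RefSeq accessions gave 28168 probes (55.7%) a symbol. The probe with the highest mean signal stands for its gene, and a change means past 4-fold. Genes named are the 9 with a probe, and up to 3 genes of each list in each direction with the largest differences past 4-fold at 48 h. NFE2L2, KEAP1 and BACH1 are named as well. So are the 5 nearest profiles of AKR1C1 and of HMOX1 among genes well above background on at least 3 arrays. TXN, FTL, SRC and the remaining aldo-keto reductases with a difference were described further after their values were seen. The genes and lists were chosen with earlier results of these data known. The genes of the NADPH supply list are not reported singly here. Python 3.11.15 and limma 3.58.1 in R 4.3.3 (normexp, offset 50) were used. The steps were tested on simulated data, made as copies of a single array with added noise and a small set of bright probes lowered. The simulation lacked the wide differences of the 48 h comparison, so it checks the calculation only. The number of arrays limits the precision, and the spot SD covers reading error only.

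Other settings tried were the 75th percentile as scale, no normalization, normexp, no bound, only probes read well above background on each array compared, outlier spots kept, the mean over a gene's probes, the authors' combined table, and thresholds of 2-fold and 10-fold. Exchange of the array of non-specific stapled-peptide at 48 h for that at 24 h was added after seeing the data.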

Additional observations from a re-analysis of the deposited data

How the results depend on the processing

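No paired analysis was possible because each condition had 1 array and the labels give no replicate numbers. A fit with peptide and time as additive terms, which would take the times as replicates, was not made. At 48 h the 5 genes past 4-fold became 3 when probes dim on either array were left out, which removes AKR1C1 and NQO1, 8 at a threshold of 2-fold and 3 at 10-fold. Between times with non-specific stapled-peptide the 5 genes became 3 without such probes, 3 at 10-fold, 7 at 2-fold and 4 with normexp, where TXNRD1 was lost. At 24 h the count of 0 became 1 at 2-fold, HMOX1. With the array of non-specific stapled-peptide at 24 h in place of that at 48 h, chosen after seeing the data, the count against stapled-peptide at 48 h was 0 and the median -0.0161. AKR1C1 (0.0486), AKR1C3 (0.0338), NQO1 (0.0125) and GCLM (-0.0161), and SRXN1 (0.0855) among genes under 4-fold, then changed sign, and HMOX1 stayed at -1.22. The cause was not tested. None of the other settings turned the sign of a gene past 4-fold. Over these, the log2 difference at 48 h ran from -9.79 to -5.42 for AKR1C1, -9.19 to -6.76 for AKR1C3, -6.31 to -2.90 for NQO1, -2.54 to -2.10 for TXNRD1, 2.21 to 2.54 for GCLM and -0.92 to -0.20 for AKR1B10. With normexp the count over all genes at 48 h fell from 1386 higher and 1489 lower to 684 and 860, 9.02% of those compared, while the count of the 9 genes remained 5. At 24 h it fell from 23 higher and 44 lower to 0 and 1, and with stapled-peptide between times from 37 and 47 to 0 and 1. Without a bound for dim probes these became 75 and 90 at 24 h and 84 and 87 with stapled-peptide. Without probes dim on either array they were 7 and 17, and 7 and 18. The 15 genes of the pathway lists past 4-fold at 48 h kept their direction under each of these settings that gave a value, but GLRX and TXNIP went under 4-fold without normalization, AKR1C4, MAFF and OSGIN1 with normexp, and FTH1 with the mean over probes. Signals near background, as of AKR1B10 and NFE2L2, give differences that spot error alone could move.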
